A study of Nasonia vitripennis with 23 samples.

Results

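Heads of lone foundresses were compared with heads of females that had laid eggs beside co-foundresses in the parasitoid wasp Nasonia vitripennis. The comparison took all libraries of the single-foundress and five-foundress groups, apart from single-foundress replicate 2, which the study removed as an outlier before testing. That left 14 of the 23 libraries, with 7 single-foundress and 7 five-foundress libraries. It was made across 13599 genes with at least 1 read, of 14131 genes listed. Focal females of both groups were wild-type AsymC females, a strain that descends from the LabII wild type and was cured of Wolbachia. They had been fed on a host and then on honey solution, and were given 3 hosts (blowfly pupae) for 3 h. A single-foundress female was alone with the hosts. A five-foundress female shared them with 4 females of STDR, a red-eyed mutant strain, and was recognised afterwards by her eye colour. The groups therefore differed in the presence of females of another strain as well as in the number of females, and these cannot be told apart. The 8 libraries of the 10-foundress group (9 STDR co-foundresses) entered the fit only to share the estimate of spread, and their values are given beside the others where useful. Each library held RNA of 12 heads pooled within a group, so the pool was the replicate, and all females of a pool had produced offspring.

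Egg-laying females of this species control the sex of their young because unfertilised eggs give males and fertilised eggs give females. A lone foundress lays mostly daughters, since brothers compete with each other for mates at the host. Females that share a host lay a larger share of sons, since competition among related males is then reduced. Cues of other females reach the head through smell, taste, touch and sight. Odorant receptors and gustatory receptors sit in the dendrites of sensory neurons, opsins in the photoreceptors of the eye, and acetylcholine is the main excitatory transmitter of the insect brain. The comparison asks which of these genes, and which other genes of the head, differ in mRNA level after 3 h with or without company.

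The libraries of lone foundresses held 27953555 to 44849128 counted reads each (median 32164140), and those of the five-foundress females 25194329 to 69696501 (median 38984696). The totals did not differ beyond their spread (exact permutation test, two-sided, p = 0.245, or 0.734 after adjustment over 3 values tested in this way). No pair of libraries within a group was alike within counting noise (chi-square per gene 81.3 to 293 over 21 single-foundress pairs and 28.3 to 411 over 21 five-foundress pairs). Genes of nervous and sensory tissue were read in every library. Syt1, the synaptotagmin of synaptic vesicles, had a mean of 256 ± 43.0 (SD) CPM, counts scaled to the size of the library, in the single-foundress group and 266 ± 31.0 in the five-foundress group. Lop1, a long-wavelength opsin, lay between 5941 and 11565 CPM over the 14 libraries. Of germ-line genes, nanos was near the detection limit (1 to 10 counts per library), while oskar was read at 8.14 to 16.0 CPM. In pooled heads, fewer cells of one type and less RNA per cell cannot be told apart.

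No gene passed an adjusted p of 0.05 between the single- and five-foundress groups (edgeR quasi-likelihood test, Benjamini-Hochberg adjustment, smallest adjusted p = 1). The number at an unadjusted p below 0.05 was 240, or 1.76% of the genes tested, of which 113 (0.831%) were higher and 127 (0.934%) lower in the five-foundress group. Scaling with upper quartile factors moved that split to 92 higher and 160 lower. DESeq2 gave 223 genes at the same unadjusted threshold and also 0 past the adjusted one. Of these 223 genes, 179 were among the 240. Since none passed the adjusted threshold, the genes below are described by size, error and order, and no gene is called changed.

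Fitted differences were small for most genes with many reads. Over the 9312 genes averaging 100 counts or more, the median absolute difference was 0.094 on the log2 scale, against a median standard error of 0.16. In this set 92 genes (0.988%) differed by more than 1.5-fold in the fitted value and 20 (0.215%) by more than 2-fold, in either direction. The 95% interval lay within 1.5-fold in both directions for 6700 genes (72.0%) and within 2-fold for 8705 (93.5%). The points in the plot of fold change against read depth narrow towards high counts, and the genes at a low unadjusted p sit at the edge of that funnel.

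**Figure D1:**
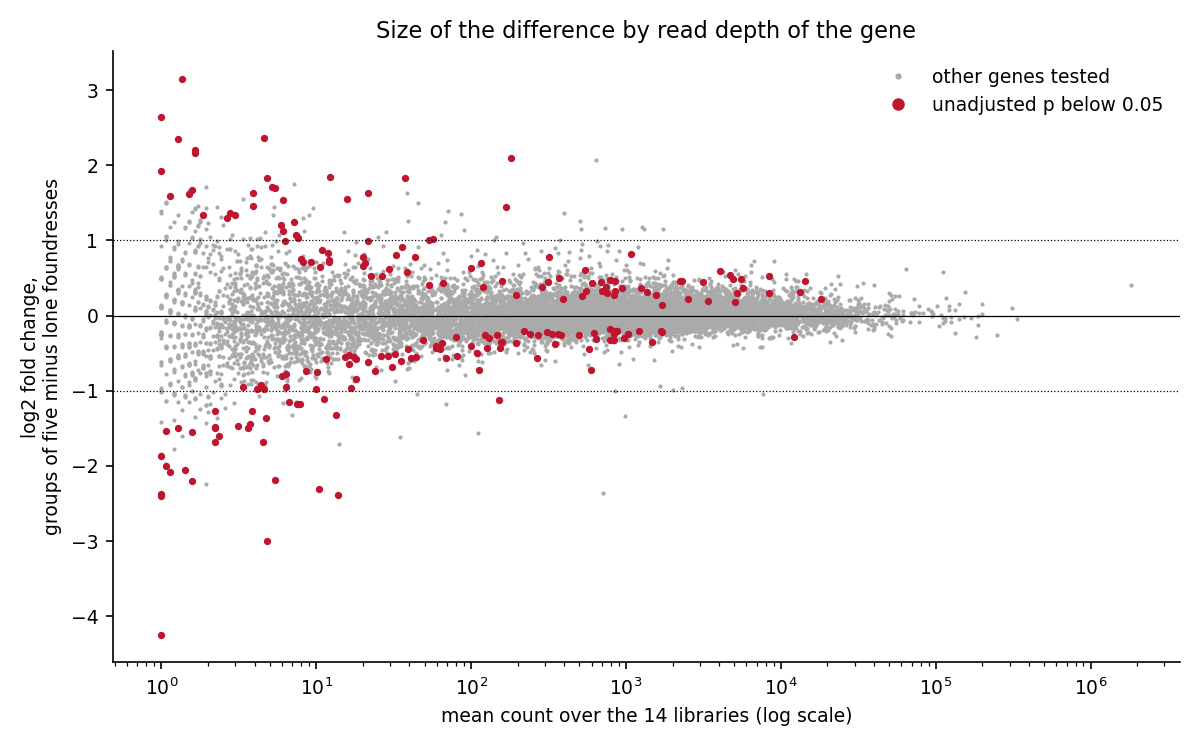
Fitted log2 fold change of each gene (five-foundress minus single-foundress) against its mean count over the 14 libraries, on a log axis, for the 12530 of 13599 tested genes that averaged 1 count or more. Red points are the 209 of these genes at an unadjusted p below 0.05, and dotted lines mark a 2-fold difference. Differences beyond 2-fold lie mostly among genes with few counts.

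Single-foundress pools varied more among themselves than five-foundress pools. Over the same 9312 genes, the median SD of log2 CPM was 0.286 in the single-foundress group and 0.235 in the five-foundress group, and the SD was larger in the single-foundress group for 69.4% of genes. The 10-foundress group had 0.337, above both. Leaving out each library in turn gave 0.272 to 0.297 and 0.224 to 0.242, so that no one pool carried the order. No test was made of the difference in spread. Over the 500 genes of highest variance, 3.54% of the variance lay between the single- and five-foundress groups, less than the mean of 7.69% over all 3432 assignments of the 14 libraries to 2 sets of 7 (exact permutation test, p = 0.984). The first and second principal components held 32.0% and 16.8% of the variance. On the first, single-foundress libraries ran from -32.2 to 36.9 and five-foundress libraries from -34.4 to 21.1. The groups differed beyond their spread on neither component (exact permutation tests, two-sided, p = 0.779 and 0.699, both 0.779 after adjustment).

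Only 3 genes (0.0221% of those tested) had 7 libraries of one group entirely above the 7 of the other. LOC100123391 ran from 12.4 to 14.2 CPM (median 13.9) in the single-foundress group and from 14.4 to 19.8 CPM (median 15.8) in the five-foundress group. The gap between the groups was narrow, and the fitted difference was 0.25 ± 0.13 (SE) on the log2 scale. LOC100120472 ran from 44.2 to 57.0 CPM (median 47.4) in lone foundresses and from 37.8 to 43.2 CPM (median 42.1) in company, a difference of -0.22 ± 0.08. The 10-foundress mean of LOC100120472 was 46.3 ± 5.28 CPM (SD), inside the single-foundress range. The third gene, LOC100680293, averaged 1.57 counts, so that its separation rests on a handful of reads, and it is named after its values were seen. The tables used here pair none of these 3 IDs with a name, and the same holds for the other IDs beginning with LOC.

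The well-read gene with the smallest p among those higher in company was CYP314A1, a cytochrome P450 that in Drosophila converts ecdysone into the active steroid hormone 20-hydroxyecdysone. Its CPM were 7.24, 7.77, 6.45, 6.06, 6.58, 5.87 and 5.95 in single-foundress replicates 1 and 3 to 8. They were 8.53, 7.24, 8.66, 9.73, 7.73, 9.99 and 8.28 in five-foundress replicates 10 to 16. The means were 6.56 ± 0.713 and 8.59 ± 0.996 CPM (SD, n = 7 and 7). All 7 five-foundress libraries lay above the single-foundress median, and the lowest of them, replicates 11 and 14, overlapped single-foundress replicates 1 and 3. The fitted difference was 0.39 ± 0.10 on the log2 scale, with an unadjusted p of 0.00118 and an adjusted p of 1 in edgeR. Over 24 alternative settings the difference ranged from 0.21 to 0.42 and the adjusted p from 0.237 to 1. The 10-foundress mean was 8.99 ± 1.01 CPM. The ecdysone receptor gene Ecr, which encodes the receptor of the same hormone, had medians of 7.72 CPM (range 2.22 to 13.7) in the single-foundress group and 7.74 CPM (4.37 to 23.2) in the five-foundress group. The level of Ecr thus overlapped throughout, with a fitted difference of 0.51 ± 0.45.

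Akhr, the receptor of adipokinetic hormone, which releases stored lipid and sugar in insects, was the last of the 10 leading genes in the same order. It ran from 9.95 to 22.8 CPM (median 17.0) in the single-foundress group and from 16.3 to 29.0 CPM (median 23.0) in the five-foundress group. Single-foundress replicates 1 and 8 were the lowest, and the groups overlapped between 16.3 and 22.8 CPM. The fitted difference was 0.48 ± 0.19 (unadjusted p = 0.0195, adjusted p = 1 in edgeR). The 10-foundress mean of 19.0 ± 5.04 CPM lay between the other means.

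The remaining 8 of the 10 leading genes higher in company carry no name. LOC100121942 had the smallest p among them, with a median of 100 CPM (69.1 to 132) in lone foundresses and 146 CPM (115 to 187) in company. Its fitted difference was 0.54 ± 0.15 (unadjusted p = 0.0014). LOC100123700 had a median of 10.5 CPM (7.11 to 15.6) against 16.9 CPM (14.0 to 19.1), a difference of 0.61 ± 0.17 and the largest of the 10. LOC100115534 differed by 0.36 ± 0.11, from 131 ± 14.1 to 168 ± 33.3 CPM. In each of these 3 genes every five-foundress library lay above the single-foundress median, and the groups still overlapped. For LOC100679411, LOC100120123, LOC100114667, LOC100113915 and LOC100122210 the differences lay between 0.26 and 0.52, and all 10 genes kept their direction in each of the 24 alternatives. The alternatives reuse the libraries in which the 10 genes were picked by p, so a kept direction is no separate support.

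The 10 leading genes lower in company carried no name either. All of them kept their direction in each of the 24 alternatives, which again reuse the libraries that picked them. LOC100679280 had a median of 23.6 CPM (20.7 to 32.8) in lone foundresses and 19.2 CPM (17.7 to 23.5) in company, a difference of -0.32 ± 0.11. LOC100115155 had 8.67 ± 1.75 CPM against 5.84 ± 1.04, a difference of -0.57 ± 0.19. LOC100679073, LOC100121796, LOC103315650, LOC100113687, LOC100118996 and LOC100677843 had differences between -0.38 and -0.23. LOC100115083 was an exception in kind. It had 20.9 CPM in single-foundress replicate 6 and between 2.21 and 4.51 CPM in the other 6 single-foundress libraries, beside 2.07 to 3.87 CPM in the five-foundress group. Its fitted difference of -1.12 ± 0.38 rests on that library, without which it was -0.34.

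**Figure D2:**
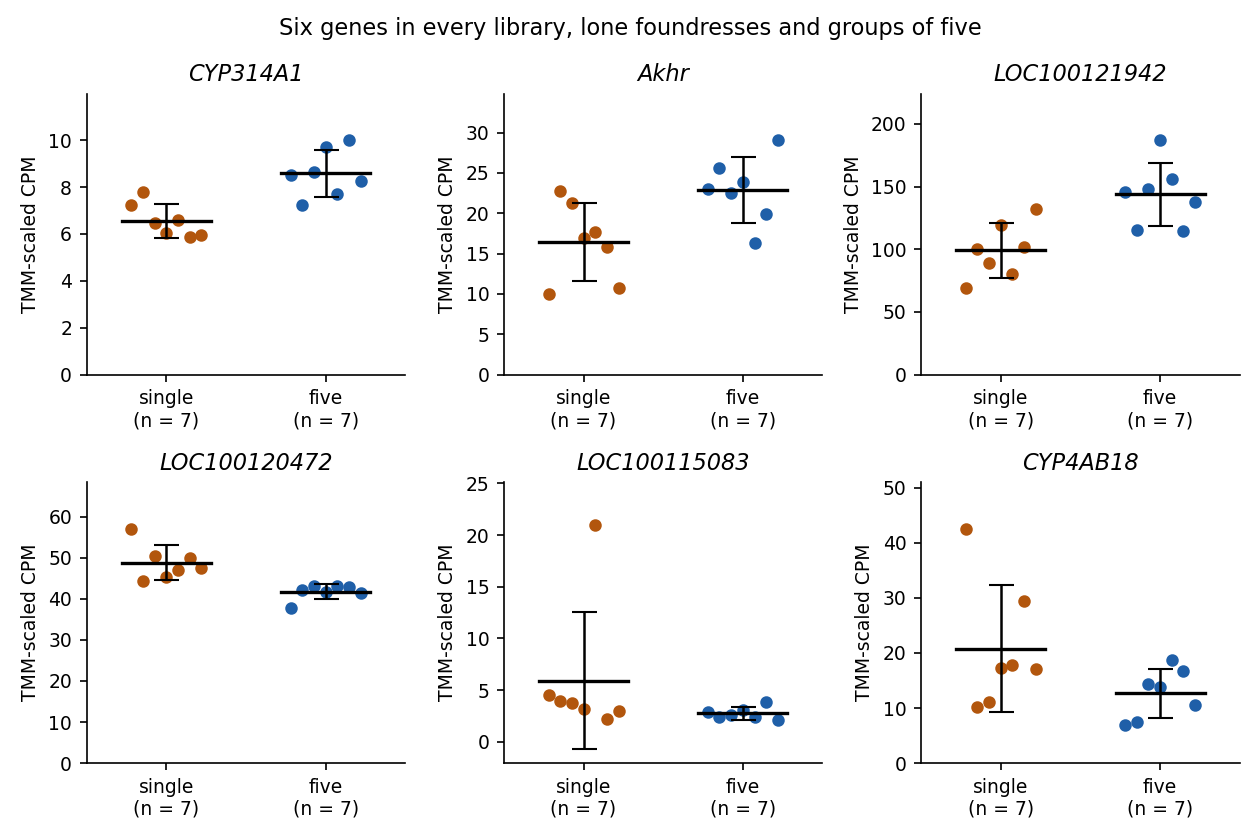
TMM-scaled CPM of 6 genes in the 7 single-foundress (orange) and 7 five-foundress (blue) libraries, each point a pool of 12 heads, with the mean (line) and SD (error bar). CYP314A1, Akhr and LOC100121942 are higher in company with overlapping points, LOC100120472 is lower with no overlap, LOC100115083 has 1 single-foundress library at 20.9 CPM, and CYP4AB18 ranges from 10.3 to 42.5 CPM in lone foundresses.

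The largest fold changes were ranked among the genes averaging 100 counts or more, since larger values occurred in genes with fewer reads. LOC103316607 had the largest positive value of these, 2.09 ± 0.98, with 0.063 to 7.45 CPM (median 0.887) in lone foundresses and 0.081 to 21.8 CPM (median 6.53) in company. It lay between 1.59 and 3.10 when a library was left out. LOC100121340 followed with 2.08 ± 1.57. It reached 172 CPM in five-foundress replicate 10 and 33.5 CPM in single-foundress replicate 6, while its medians were 0.984 and 1.39 CPM. Without five-foundress replicate 10 its difference turned to -1.97. LOC100124007 had the largest negative value at this depth, -2.36 ± 1.70, with 286 CPM in single-foundress replicate 6 and 53.2 CPM in five-foundress replicate 15, and medians of 0.331 and 0.195 CPM. Without single-foundress replicate 6 it turned to 4.60, and LOC100115126 and LOC100123845 also turned positive. The direction of each of these 4 genes thus turned on 1 pool. LOC103317957 (1.44 ± 0.61), LOC100678590 (1.37 ± 0.92), LOC100123107 (1.26 ± 0.69) and LOC103316197 (-1.04 ± 1.33) kept their sign in all alternatives, although LOC103316197 was at -0.02 without single-foundress replicate 6. The smallest p of all belonged to LOC103316497 (unadjusted p = 0.000108, adjusted p = 1 in edgeR), which averaged 4.71 counts and differed by -1.36 ± 0.30.

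Gene families were set beside all genes. Of the 11142 genes averaging 10 counts or more, 52.3% had a fitted value above 0 in the five-foundress group and the median log2 fold change was 0.01. Families are described by their members above the same limit. A list score gives the median over these members of the log2 CPM in a library minus the mean of the gene over the 14 libraries. No family was tested as a set. List medians moved with single pools.

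**Figure D3:**
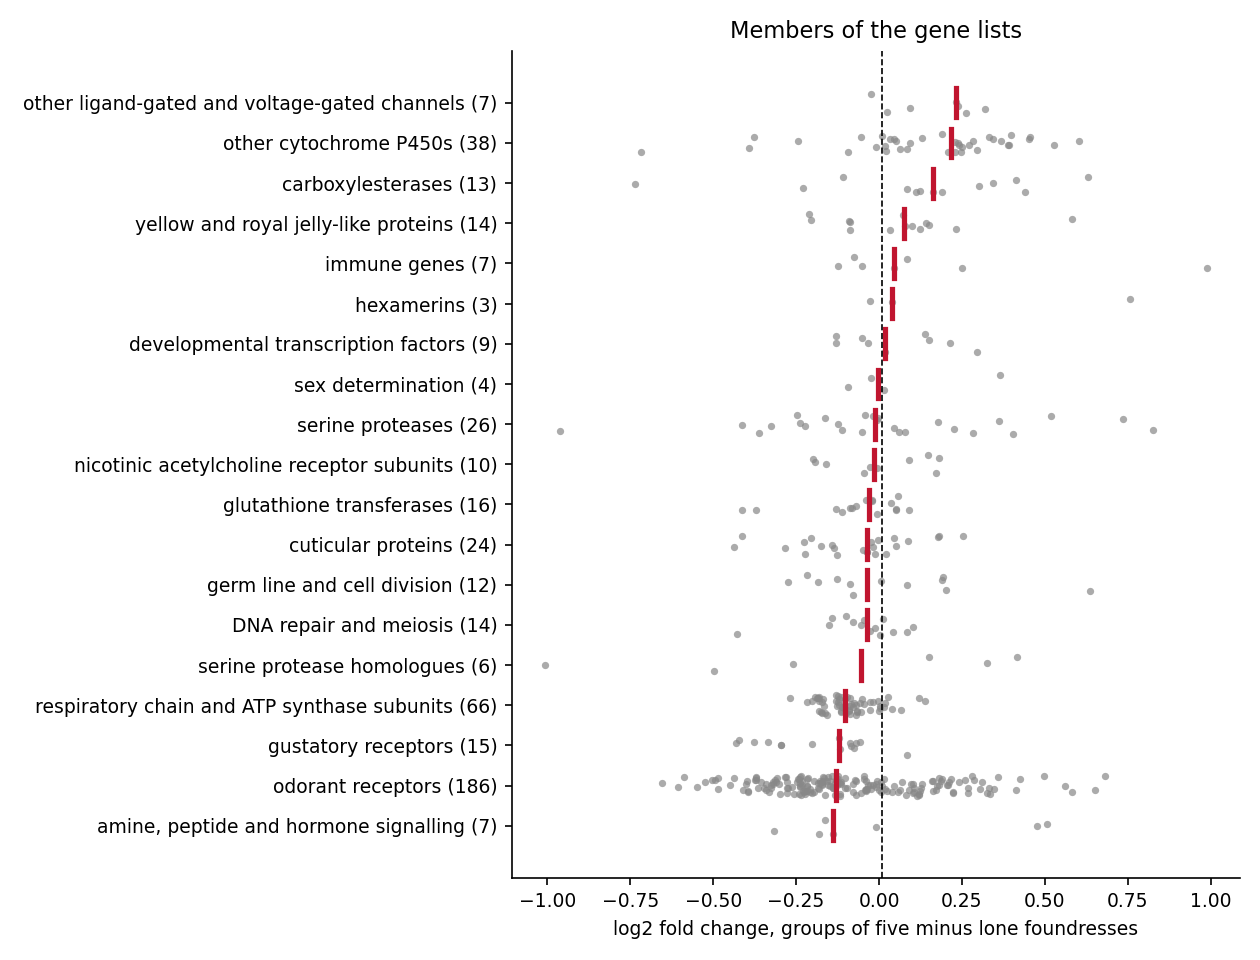
Fitted log2 fold change (five-foundress minus single-foundress) of each member that averaged 10 counts or more (grey points), by gene list, with the number of members in brackets. Red bars are list medians and the dashed line is the median of all genes. List medians lie between -0.14 and 0.23, and single members spread more widely than the medians.

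Odorant receptors formed the largest family, with 214 listed, 211 tested and 186 averaging 10 counts or more. Of the 186, 60 had a value above 0 and 126 below, with a median of -0.13. None reached an unadjusted p of 0.05, beside 1.76% of all genes. Or142 had the lowest value, -0.65 ± 0.37, and Or77 the smallest p among these members, with a difference of -0.61 ± 0.32 (unadjusted p = 0.0732 in edgeR). Or117 had the highest value, 0.68 ± 0.45. Or1 ran from 14.3 to 128 CPM (median 66.7) in lone foundresses and from 27.0 to 260 CPM (median 72.0) in company, and differed by 0.58 ± 0.47 (0.24 without five-foundress replicate 10), against the sign of the list median. Pools differed far more than groups. The median SD of log2 CPM was 1.10 in the single-foundress and 0.84 in the five-foundress group, where the 11142 genes had 0.318 and 0.263. The list score ran from -1.70 in single-foundress replicate 8 to 1.18 in single-foundress replicate 1, and the five-foundress scores (-0.85 to 0.94) lay inside that range. Without single-foundress replicate 1 the median was 0.09, with 121 of 186 above 0, and without single-foundress replicate 8 it was -0.29, with 33 above 0. The direction of this family thus turned on 1 pool.

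Gustatory receptors were read at low levels, so that 44 of 46 listed were tested and 15 averaged 10 counts or more. Of these 15, 1 had a value above 0, with a list median of -0.12 and values between -0.43 and 0.08. None had an unadjusted p below 0.05. Gr49 had the smallest p, with 0.823 to 1.76 CPM (median 1.43) in lone foundresses and 0.363 to 1.57 CPM (median 1.04) in company, a difference of -0.42 ± 0.24 (unadjusted p = 0.0982 in edgeR). The list median was negative in each of the 24 alternatives, between -0.26, without five-foundress replicate 13, and -0.07, with 5 surrogate variables. Single-foundress replicate 6 had the lowest list score of all 14 libraries (-0.29), and the other 6 single-foundress scores (0.13 to 0.44) lay above all five-foundress scores (-0.22 to 0.09). OBP77, an odorant binding protein that carries odour molecules through the fluid around sensory neurons, differed by 0.13 ± 0.37, and the other 2 listed had under 10 counts on average. Lop1 differed by -0.05 ± 0.17, with medians of 9411 CPM in lone foundresses and 8725 CPM in company.

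Subunits of nicotinic acetylcholine receptors, which open on binding acetylcholine, were even. Of 10 members, 4 had a value above 0, the values lay between -0.20 and 0.18, and every 95% interval lay within 2-fold. The list median of -0.02 changed sign with the pools, from -0.13 without five-foundress replicate 13 to 0.10 without single-foundress replicate 8. The smallest p was that of nAChRa12, with a median of 29.1 CPM in lone foundresses and 26.8 CPM in company and a difference of -0.20 ± 0.11 (unadjusted p = 0.0858 in edgeR). Other ion channels leaned higher in company. Of 7 members, 6 had a value above 0 and the median was 0.23, with none at an unadjusted p below 0.05. Para, the voltage-gated sodium channel of the action potential, ran from 9.77 to 94.6 CPM (median 36.1) in lone foundresses and from 36.8 to 72.0 CPM (median 55.2) in company, so that the five-foundress range lay within the single-foundress one. Its difference was 0.32 ± 0.42 (0.14 when single-foundress replicate 1 was left out, 0.61 when replicate 5 was). Slo, a potassium channel opened by calcium, differed by 0.24 ± 0.34, and the glutamate-gated chloride channel GluCl by 0.23 ± 0.27. Single-foundress replicate 1 had the lowest list score of this group (-1.09, where the other pools of lone foundresses had -0.55 to 0.70). Without it the median was 0.09, with 5 of 7 above 0, and without single-foundress replicate 5 it was 0.40.

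**Figure D4:**
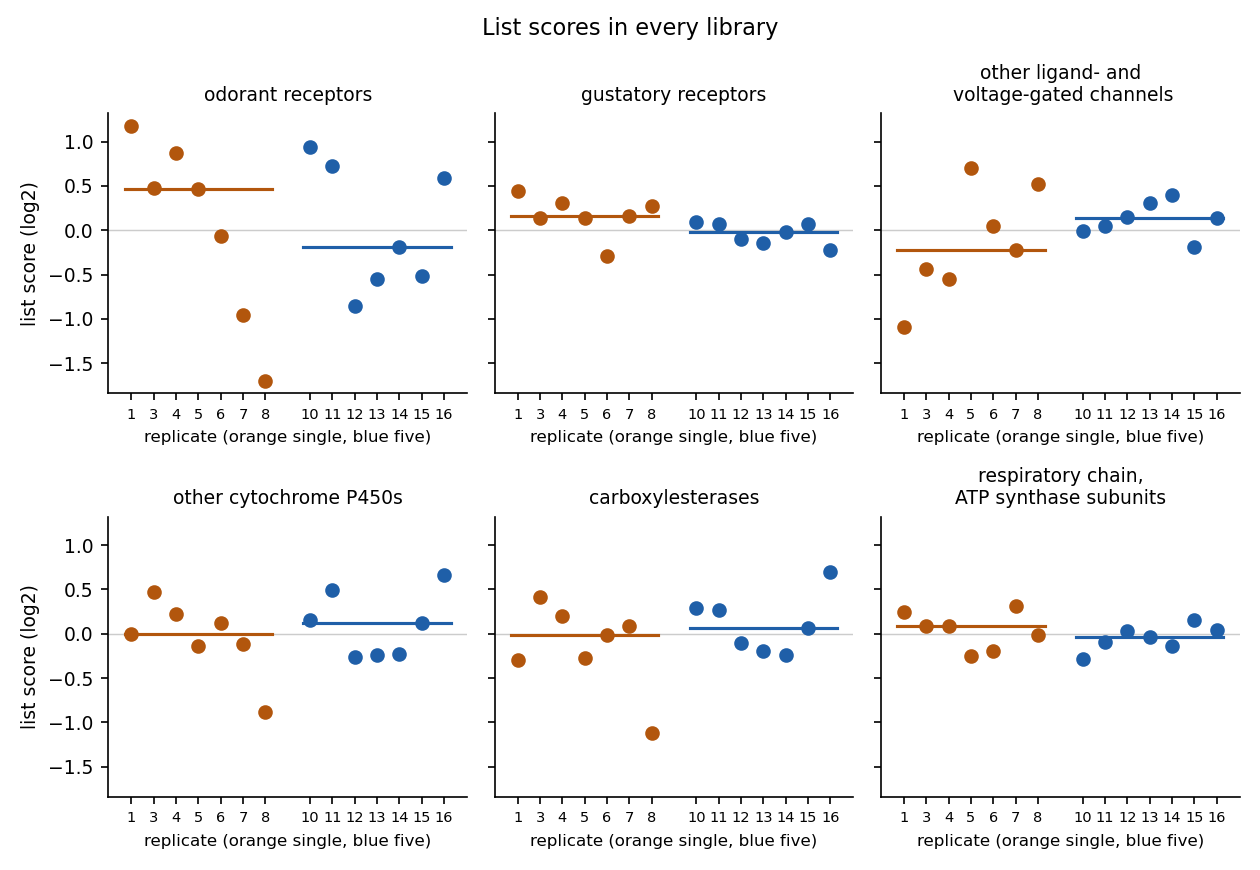
List score (median over members of log2 CPM minus the mean of each gene over the 14 libraries) in each single-foundress (orange) and five-foundress (blue) library for 6 gene lists, by replicate number, with a line at the group median. The groups overlap in every panel, and single-foundress replicate 8 is lowest for odorant receptors (-1.70), P450s (-0.89) and carboxylesterases (-1.12).

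Genes of amines, peptides and hormones split, with 2 of 7 above 0 (Akhr and Ecr, above) and a median of -0.14. Leaving out single-foundress replicate 7 gave a median of -0.03, and leaving out replicate 3 gave -0.22. The neuropeptide gene Pdf, which links clock neurons in the insect brain, had medians of 208 CPM in lone foundresses and 224 CPM in company and differed by -0.14 ± 0.22. Eh1, an eclosion hormone, differed by -0.01 ± 0.17. A pair of rows shares the symbol Dop2, a dopamine receptor, and they differed by -0.16 ± 0.15 and -0.32 ± 0.27. Creb, a transcription factor that takes part in long-term memory in insects, ran from 25.9 to 62.3 CPM (median 49.3) in lone foundresses and from 53.2 to 75.5 CPM (median 60.5) in company. Single-foundress replicate 1 was the lowest, and the groups overlapped above 53.2 CPM. The difference of Creb was 0.39 ± 0.19 (unadjusted p = 0.0538 in edgeR), and that of Srf, the other gene of its list, was -0.02 ± 0.07.

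Among genes that act in sex determination of the embryo and in sexual differentiation, Fru, Dsx and Tra were level. Fru differed by -0.02 ± 0.14, Dsx by 0.02 ± 0.12 and Tra by -0.09 ± 0.19. Dsx ran from 216 to 382 CPM in lone foundresses and from 272 to 323 CPM in company, one range within the other. The 95% interval of Dsx, -0.23 to 0.26 on the log2 scale, was among the narrower ones. Nvu1, placed in the same list by its symbol, was read at 28.4 counts on average and was less certain. It had 0.37 ± 0.53, and between 0.14 and 0.83 when a library was left out. The maintenance DNA methyltransferase gene Dnmt1a differed by 0.05 ± 0.15 and the methyl-DNA binding protein gene Mbd by 0.01 ± 0.11.

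Cytochrome P450s other than CYP314A1, a family that oxidises foreign compounds as well as hormones, odours and lipids, had 31 of 38 members above 0 and a median of 0.22. By P450 family, 12 of 13 CYP6 members (median 0.27), 11 of 15 CYP4 members (0.19) and 8 of 9 CYP9 members (0.03) had a value above 0. The single member at an unadjusted p below 0.05 went the other way. CYP4AB18 ran from 10.3 to 42.5 CPM (median 17.2) in lone foundresses, highest in replicates 1 and 7, and from 6.86 to 18.7 CPM (median 13.8) in company. Its difference was -0.72 ± 0.29 (unadjusted p = 0.0219, adjusted p = 1 in edgeR), and -0.45 without single-foundress replicate 1. CYP9P3 came next, with a median of 85.6 CPM (57.1 to 125) in lone foundresses and 118 CPM (89.2 to 157) in company, a difference of 0.37 ± 0.18 (unadjusted p = 0.0517 in edgeR). CYP6AQ8 showed how pools shaped the family. It had 258 CPM in single-foundress replicate 8 and 1223 to 2445 CPM in the other lone-foundress pools. In company it had 3712 and 3548 CPM in replicates 10 and 16, 2115 CPM in replicate 11 and 782 to 1098 CPM in the rest. The median library of CYP6AQ8 was therefore lower in company (1098 against 1524 CPM), while the fitted difference was 0.23 ± 0.42, or -0.04 without five-foundress replicate 10. For CYP6 members as a whole the median list score was likewise lower in company (-0.20 against -0.13), opposite in sign to the median of the fitted values. The median over the 38 P450s fell to 0.05 without five-foundress replicate 11 (25 above 0), and was 0.11 without single-foundress replicate 8 (22 above 0) and 0.11 without five-foundress replicate 16 (26 above 0). With limma-voom, which gives outlying libraries less weight, it was 0.007, and the reason for this change was not tested. The CYP6 median was 0.12 and the CYP4 median 0.05 without five-foundress replicate 11, and the CYP9 median ran from -0.02 without single-foundress replicate 8 to 0.19 without single-foundress replicate 3.

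Carboxylesterases, enzymes that split esters of odours, hormones and foreign compounds, followed a similar pattern, with 10 of 13 above 0 and a median of 0.16. CCE-B6 had 68.4 CPM in single-foundress replicate 8 and 529 to 930 CPM in the other lone-foundress pools. It had 1761, 1286 and 1610 CPM in five-foundress replicates 10, 11 and 16 and 323 to 594 CPM in the other 4. Its difference was 0.44 ± 0.44, or 0.19 without five-foundress replicate 10. The 1 member at an unadjusted p below 0.05 was CCE-E7, lower in company at 0.48 CPM (median) against 0.781, with 23.9 counts on average and a difference of -0.73 ± 0.29 (unadjusted p = 0.018, adjusted p = 1 in edgeR). The list median was 0.08 without five-foundress replicate 16, 0.10 without five-foundress replicate 11 or single-foundress replicate 5, and 0.11 once replicate 8 of the lone foundresses was left out, and with limma-voom it was -0.01. Single-foundress replicate 8 had the lowest score of the 14 libraries in 9 of the 27 lists. Besides odorant receptors (-1.70), OBP77 (-1.76), P450s (-0.89) and carboxylesterases (-1.12), these were immune genes (-0.999), yellow and royal jelly-like proteins (-0.82), serine protease homologues (-0.57), glutathione transferases (-0.48) and serine proteases (-0.25). Of these 9 lists, 5 had positive scores in five-foundress replicates 10, 11 and 16, namely the first 4 and glutathione transferases (0.15 to 0.99). The pools were set side by side after their values were seen, and what they share was not tested. Glutathione transferases, which couple foreign compounds to glutathione, had 5 of 16 above 0 and a median of -0.03, which was positive in 2 of the 24 alternatives. GstD5 had the lowest value, -0.41 ± 0.38.

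Subunits of the respiratory chain and ATP synthase, the nuclear-encoded machinery that makes ATP in mitochondria, had a median SE of 0.16, like that of all genes averaging 100 counts or more. Of 66 members, 9 had a value above 0 and the median was -0.10, with none at an unadjusted p below 0.05. Without single-foundress replicate 7 the median was -0.05, and without single-foundress replicate 5 it was -0.16. By complex, the medians were -0.12 for complex I (33 members), -0.03 for complex II (4), -0.11 for complex III (9), -0.09 for complex IV (7) and -0.10 for ATP synthase (13), and each of these also stayed negative when any 1 library was left out. The lowest value was that of Uqcr10, a subunit of complex III, with a median of 207 CPM (138 to 282) in lone foundresses and 174 CPM (138 to 223) in company, and a difference of -0.27 ± 0.20. Ndufb4 of complex I had 41.7 CPM (32.5 to 50.1) and 36.9 CPM (28.7 to 43.1), a difference of -0.18 ± 0.14. The 95% interval of every one of the 66 members lay within 2-fold. The list score ran from -0.25 to 0.32 in lone foundresses and from -0.29 to 0.15 in company, so that the offset between groups was smaller than the range within either. With 5 surrogate variables the list median was 0.02. By complex it was then -0.005 for complex I, 0.009 for complex II, 0.05 for complex III, 0.02 for complex IV and 0.04 for ATP synthase.

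Genes of storage, cuticle and defence varied more among pools. ppo1, a prophenoloxidase that makes melanin in wound healing and defence, ran from 4.24 to 29.4 CPM (median 9.40) in lone foundresses and from 4.25 to 58.3 CPM (median 15.1) in company, a difference of 0.99 ± 0.60 (0.51 without five-foundress replicate 10). The highest pool of each group was single-foundress replicate 6 and five-foundress replicate 10. The same pools were highest for Def1-2, a defensin, an antimicrobial peptide, with 2885 and 3145 CPM against 21.3 to 708 CPM in the other 12 libraries. Def1-2 differed by 0.25 ± 1.04 (-1.03 when five-foundress replicate 10 was left out, 1.78 when single-foundress replicate 6 was) and Def1-1 by -0.05 ± 1.14, and both 95% intervals reached beyond 2-fold in both directions. Imd, a signalling protein that switches on such peptides in Drosophila, was steady at -0.08 ± 0.14. Over the 7 immune genes, 4 had a value above 0 and the median was 0.04 (-0.15 without five-foundress replicate 10).

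Of the hexamerins, storage proteins of the blood, Hex70b had 1.85 to 10.0 CPM (median 3.23) in lone foundresses and 3.58 to 17.7 CPM (median 4.82) in company, a difference of 0.76 ± 0.45 (0.33 when five-foundress replicate 11 was left out, 1.14 when single-foundress replicate 3 was), while Hex109 and Hex83 differed by 0.04 ± 0.26 and -0.03 ± 0.29. Cuticular proteins had 7 of 24 above 0 and a median of -0.04. Both list members at an unadjusted p below 0.05, CPR8 and CPR9, averaged 6.07 and 1.86 counts and lay outside the 24. Serine proteases had 11 of 26 above 0 (median -0.01) and their inactive homologues 3 of 6 (-0.05). SP22 had the smallest p among the 26, with a difference of 0.28 ± 0.16 (unadjusted p = 0.0815 in edgeR). Yellow and royal jelly-like proteins had 9 of 14 above 0 (median 0.07), germ-line and cell division genes 6 of 12 (-0.04), DNA repair and meiosis genes 5 of 14 (-0.04) and developmental transcription factors 5 of 9 (0.02). The medians of these lists were near 0 and, apart from cuticular proteins and DNA repair and meiosis genes, changed sign when 1 library was left out. Of lists with a single gene, HSC70, a constitutive heat shock protein, differed by 0.08 ± 0.13 and the venom protein gene C1q-VP by 0.30 ± 0.22.

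LOC100122102 took the most reads of any gene, a number that also depends on transcript length, with between 25197 and 85836 CPM in company (median 55887) and between 28048 and 61565 CPM in lone foundresses (median 36039). Its difference was 0.41 ± 0.33 (unadjusted p = 0.22 in edgeR), and the 10-foundress mean was 50986 CPM.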

How the data were processed

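Poly(A)+ RNA of pools of 12 female heads was sequenced in pairs of reads. Per the labels and the study's methods, the authors trimmed the reads with cutadapt 1.8.3, aligned them with TopHat2 2.0.14 to genome Nvit 2.1 and counted them per gene with HTSeq (6.0.1 in the submitters' processing notes). The authors deposited these counts without normalization. Whether strand was used in counting is not given in the sources used here, so counts of overlapping genes are uncertain. Counting used the union mode, and the study states that some ambiguously mapped reads were not counted. Counts of near-identical copies are also uncertain, and 74 symbols are shared by more than 1 row.

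Counts of 22 libraries (single-foundress replicate 2 left out) were fitted together with 3 group means using edgeR 4.0.16 under R 4.3.3, with TMM factors, the quasi-likelihood test and all genes with at least 1 read. Adjusted p-values are Benjamini-Hochberg values over all genes. The SE was the size of the log2 fold change over the root of its F statistic, and intervals are 95% intervals. DESeq2 1.42.0, voom of limma 3.58.1 with quality weights per library, sva 3.50.0 (5 surrogate variables), other factors, filters and libraries, and leaving out each library in turn served as 24 alternatives. The edgeR, DESeq2 and voom fits and the permutation of the variance share were tested on simulated data. In the simulated counts every gene had the same set spread rather than its fitted one. These runs therefore do not show how well changes are recovered at the spread of these pools. CPM are TMM-scaled, and log2 CPM used a prior count of 1. The p-values set the difference between groups against the spread between pools. The study balanced the groups over several days, and the labels do not give the day of each pool.

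Genes could be named if among the 10 smallest p in each direction averaging at least 100 counts, or the smallest p of all. In a list, the smallest p, members at an unadjusted p below 0.05 and the 5 most abundant could be named. The rule also took non-overlapping genes, those past an adjusted p in an alternative, and the 5 largest fold changes in each direction averaging at least 100 counts. Not all genes that met a rule are given in the text. CYP314A1, Lop1 and LOC100122102 were named from earlier results. Other list members were named after their values were seen. The 27 lists were matched by symbol, since 91.9% of rows carry LOC symbols without a product name. Members and lists were chosen with earlier results of these data known. Clock genes, ionotropic receptors and vitellogenin were not analysed here. Sequences and coordinates were not used here. The result of 1 list is not reported here.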

Additional observations from a re-analysis of the deposited data

Results flagged for a closer look

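In groups of 7 libraries, a library was singled out where its gap to the nearest other library took up most of the range of the group, a rule that chance meets in about 1 in 20 groups. Over 26 list scores and 30 named genes, 9 of 112 groups had such a library. Of the list scores, single-foundress replicate 6 was low for gustatory receptors (-0.29), single-foundress replicate 8 was low for P450s of the CYP4 family (-1.38) and five-foundress replicate 10 was high for yellow proteins (0.88). Of the genes, LOC100679280 was high in single-foundress replicate 4 (32.8 CPM), LOC100115083 was high in single-foundress replicate 6 (20.9 CPM), LOC100120472 was low in five-foundress replicate 10 (37.8 CPM) and LOC100121796 was low in single-foundress replicate 7 (15.3 CPM). LOC103315650 was high in single-foundress replicate 1 (6.76 CPM) and in five-foundress replicate 15 (4.795 CPM). For LOC100679280, LOC100115083 and LOC103315650 in single-foundress replicates 4, 6 and 1, and for LOC100120472, the library apart lay on the side that widens the difference between the groups.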

How the results depend on the processing

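The number of genes past an adjusted p of 0.05 was 0 under each alternative except 5 surrogate variables, which gave 2, LOC100123357 (0.66) and LOC103317916 (2.55), both with an adjusted p of 0.0254 there and up to 1 elsewhere. At an unadjusted p below 0.05, 154 genes were left after edgeR's filterByExpr, which tests fewer genes. The number was 382 with limma-voom, 500 with all 23 libraries and 849 with 5 surrogate variables. It ran from 187 to 326 when a library was left out. Fitting the 14 libraries alone, so that only the compared groups set the spread, gave 305, against 240 in the main fit. The smallest adjusted p of that fit was 0.990 (edgeR quasi-likelihood test). With all 23 libraries, 66 of the 500 were higher and 434 lower in the five-foundress group, and the median of the germ-line and cell division list was -0.45. Of 35 genes with a direction given, 4 reversed. LOC100121340 was -0.0063 with DESeq2, -0.028 with limma-voom and -0.19 with 5 surrogate variables, and ran from -1.97 to 3.98 with a library left out. LOC100124007 was 0.91 with DESeq2 and 1.504 with 5 surrogate variables and ran from -5.90 to 4.60. LOC100115126 was 0.30 with DESeq2 and ran from -2.93 to 1.70, and LOC100123845 ran from -2.98 to 0.62. In all 4 the cause was not tested beyond leaving out libraries. Of 110 other genes, 56 had the opposite sign under at least 1 alternative. The share of variance between groups stayed between 3.10% and 5.58%. No paired analysis was possible, since the labels pair no pools and do not give the day of each pool. Of all tested genes 5.32% differed by more than 2-fold, and of the part averaging at least 100 counts 0.215%. The share of read depth in this was not tested.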

Other observations

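Both genes past an adjusted p with 5 surrogate variables were higher in company without these variables as well. The same libraries picked them, so the shared direction is no separate support. LOC100123357 had 5.50 to 32.8 CPM (median 18.6) in lone foundresses and 25.8 to 50.0 CPM (median 32.8) in the five-foundress group, a difference of 0.83 ± 0.37 without surrogate variables, and its 10-foundress mean was 40.0 ± 18.8 CPM. Its lowest values were those of single-foundress replicates 1 and 4, and all 7 five-foundress libraries lay above the single-foundress median. LOC103317916 was read at 12.3 counts on average, with a median of 0.0775 CPM (0 to 0.421) and 0.205 CPM (0.0541 to 1.05). Neither ID is paired with a name in the tables used here.

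The spread among pools differed widely between families. CYP314A1 had an SD of log2 CPM of 0.152 in lone foundresses and 0.166 in company, whereas CYP4 and CYP6 members had median SDs of 0.785 and 0.719 in lone foundresses and 0.731 and 0.702 in company. CYP9 members lay lower, at 0.387 and 0.279. Respiratory chain subunits had 0.262 and 0.187. Their SD was larger in lone foundresses for 57 of 66 members, beside 68.0% of the 11142 genes averaging 10 counts or more. Channels other than nicotinic receptors had 0.635 and 0.334. Immune genes had median SDs of 0.661 and 0.790 and gustatory receptors 0.488 and 0.600, but the SD was larger in lone foundresses for 4 of 7 and 7 of 15 members, respectively. None of these differences in spread was tested.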
